A study of Mus musculus with 8 samples.

Results

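The genes described here are 10 genes of the brain endothelium: Ptprb, Tek, Tie1, Kdr, Flt1, Cdh5, Pecam1, Cldn5, Abcb1a and Slco1a4. They were taken from the array by gene symbol, which gave 10 probe sets, 1 per gene, out of 22206 probe sets that name 19505 genes. Ptprb was chosen by its log2 difference between exposed and control cortex on these arrays, so that difference is a description and was not tested. The other 9 were picked as endothelial genes, to see whether they followed Ptprb over the arrays.

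Total RNA came from the cerebral cortex (Ctx) and hippocampus (Hip) of male mice aged 12 weeks. The control groups (Ctrl) received the vehicle, 1% DMSO, and the exposed groups (CLO50) received clothianidin, a neonicotinoid insecticide, at 50 mg/kg/day for 2 weeks, a dose the labels give as a no-observed-adverse-effect level. Each of the 4 groups held 2 arrays, numbered 1 and 6 in the control groups and 3 and 6 in the exposed groups, and the strain is not stated in the labels used here. Whether the arrays of a group came from different animals is not in the labels, so each p-value reflects the spread between samples only, and that spread may be technical. Values are log2 normalized signals per probe set, and folds are given on the linear scale. Levels were compared between arrays for 1 gene at a time and never between genes.

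The endothelium lines the blood vessels, and in the brain its cells form the blood-brain barrier through tight junctions and polarised transporters. Ptprb encodes VE-PTP, a receptor tyrosine phosphatase of endothelial cells that removes phosphate from the angiopoietin receptor Tie2, the product of Tek, and associates with VE-cadherin, the product of Cdh5. Kdr and Flt1 encode the receptors through which VEGF acts on the same cells. Pecam1 and Cdh5 encode adhesion molecules of endothelial contacts, Cldn5 the main claudin of the barrier's tight junctions, Abcb1a the efflux pump P-glycoprotein of rodents and Slco1a4 an organic anion transporter of rodent brain capillaries.

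Array medians lay between 5.21 and 5.4, and replicate arrays had Pearson correlations of 0.9867 to 0.9915 over all probe sets. The tissue labels were borne out by marker genes: 6 of 7 cortex markers were lower and 7 of 7 hippocampus markers were higher in control hippocampus (limma, adjusted p under the threshold of 0.05). In exposed arrays 4 of 7 cortex markers and 7 of 7 hippocampus markers passed in those directions. A pair of control arrays stood apart in Ttr, the transthyretin gene of the choroid plexus. Ttr had a value of 19.51 in Hip-Ctrl 1 and 15.41 in Ctx-Ctrl 6, against 4.17 to 7.76 in the other 6 arrays. Over 11 choroid plexus markers only Hip-Ctrl 1 stood apart, with a mean level of 10.15. That mean was 5.47 in Ctx-Ctrl 6, the highest of the other arrays, which began at 3.77. Results that moved without these 2 arrays are given with and without them. In bulk tissue, fewer cells of a type and less RNA per cell cannot be told apart.

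Promoter sequences of 7 of the 10 genes were found in a RefSeq table of assembly GRCm38.p6, all but those of Ptprb, Cdh5 and Pecam1. The 3 printed here belong to the genes, Ptprb aside, whose exposed and control arrays did not overlap in either tissue, Slco1a4 and Abcb1a on the high side and Cldn5 on the low side. Each runs from 250 bases before to 50 bases after the annotated start and is written 5′ to 3′ on the strand of the gene, with GGAA and its complement TTCC in capitals. They lie at chr6:141856171-141856470 (minus strand), chr5:8566841-8567140 (plus strand) and chr16:18776597-18776896 (plus strand), in that order.
Slco1a4: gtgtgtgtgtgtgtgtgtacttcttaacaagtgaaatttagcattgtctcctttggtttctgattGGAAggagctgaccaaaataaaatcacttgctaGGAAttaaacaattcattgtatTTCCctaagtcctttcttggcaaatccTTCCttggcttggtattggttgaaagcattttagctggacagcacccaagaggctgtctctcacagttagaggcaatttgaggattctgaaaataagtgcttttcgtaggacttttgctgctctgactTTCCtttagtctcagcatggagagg
Abcb1a: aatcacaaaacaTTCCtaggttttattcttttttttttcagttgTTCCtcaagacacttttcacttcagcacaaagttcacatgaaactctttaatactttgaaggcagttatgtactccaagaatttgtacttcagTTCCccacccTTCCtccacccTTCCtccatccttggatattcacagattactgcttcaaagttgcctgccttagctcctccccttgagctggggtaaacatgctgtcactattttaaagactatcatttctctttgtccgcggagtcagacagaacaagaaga
Cldn5: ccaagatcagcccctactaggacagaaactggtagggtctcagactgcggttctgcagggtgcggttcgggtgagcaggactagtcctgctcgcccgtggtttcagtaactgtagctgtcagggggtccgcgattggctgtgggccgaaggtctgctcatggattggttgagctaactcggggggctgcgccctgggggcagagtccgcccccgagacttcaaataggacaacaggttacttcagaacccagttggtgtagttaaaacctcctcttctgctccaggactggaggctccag
GGAA is the core of the sites bound by ETS factors, a family with endothelial members. Counted on both strands, it occurred 5 times in the Slco1a4 window, 5 times in the Abcb1a window and 0 times in the Cldn5 window. Of the 7 windows 6 held it, and 96.0% of 32851 mouse promoters of that length did, with a median of 3 matches. CCAAT, read as ATTGG on the other strand, occurred 2 times in the Slco1a4 and 2 times in the Cldn5 window and in 37.4% of promoters. GGGCGG, read as CCGCCC on the other strand, occurred 1 time in the Cldn5 window, in 3 of 7 member windows and in 35.7% of promoters. AGTTCA, read as TGAACT on the other strand, occurred 1 time in the Abcb1a window and in 14.0% of promoters. TATAAA, read as TTTATA on the other strand, was in 1 of 7 member windows and 13.6% of promoters. CGGAAG, which overlaps GGAA and reads CTTCCG on the other strand, was in 1 of 7 and 16.9%. These are matches of letters and do not show binding.

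Ptprb had its highest values in the exposed cortex, then the exposed hippocampus, then the control cortex, then the control hippocampus. In cortex the control arrays had log2 values of 6.44 and 6.12, and the exposed arrays 7.39 and 7.51. In hippocampus the control arrays had 6.3 and 6.1, and the exposed arrays 7.08 and 7.3. All 4 exposed arrays lay above all 4 control arrays. The group means were 6.28 ± 0.23 and 7.45 ± 0.085 in cortex and 6.2 ± 0.14 and 7.19 ± 0.16 in hippocampus (SD, n = 2), a description of a 2.25-fold and a 1.99-fold higher level. The hippocampus difference was 0.99 on the log2 scale (SE 0.27, 95% interval 0.39 to 1.59, unadjusted p = 0.0035), and it did not pass adjustment over all probe sets (limma, adjusted p = 0.77). Its SE draws on the spread within all 4 groups, those of cortex included. Within an arm the order is a description without a test, since it uses the cortex values that chose the gene: hippocampus minus cortex was -0.08 in control arrays, which overlapped, and -0.26 in exposed arrays, where both hippocampus arrays lay below both cortex arrays. The hippocampus difference minus the cortex difference was -0.18 and was not tested. Without the 2 control arrays high in Ttr, which leaves 1 control array per tissue, it was 0.08. Hippocampus minus cortex in control arrays was then -0.34.

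**Figure D1:**
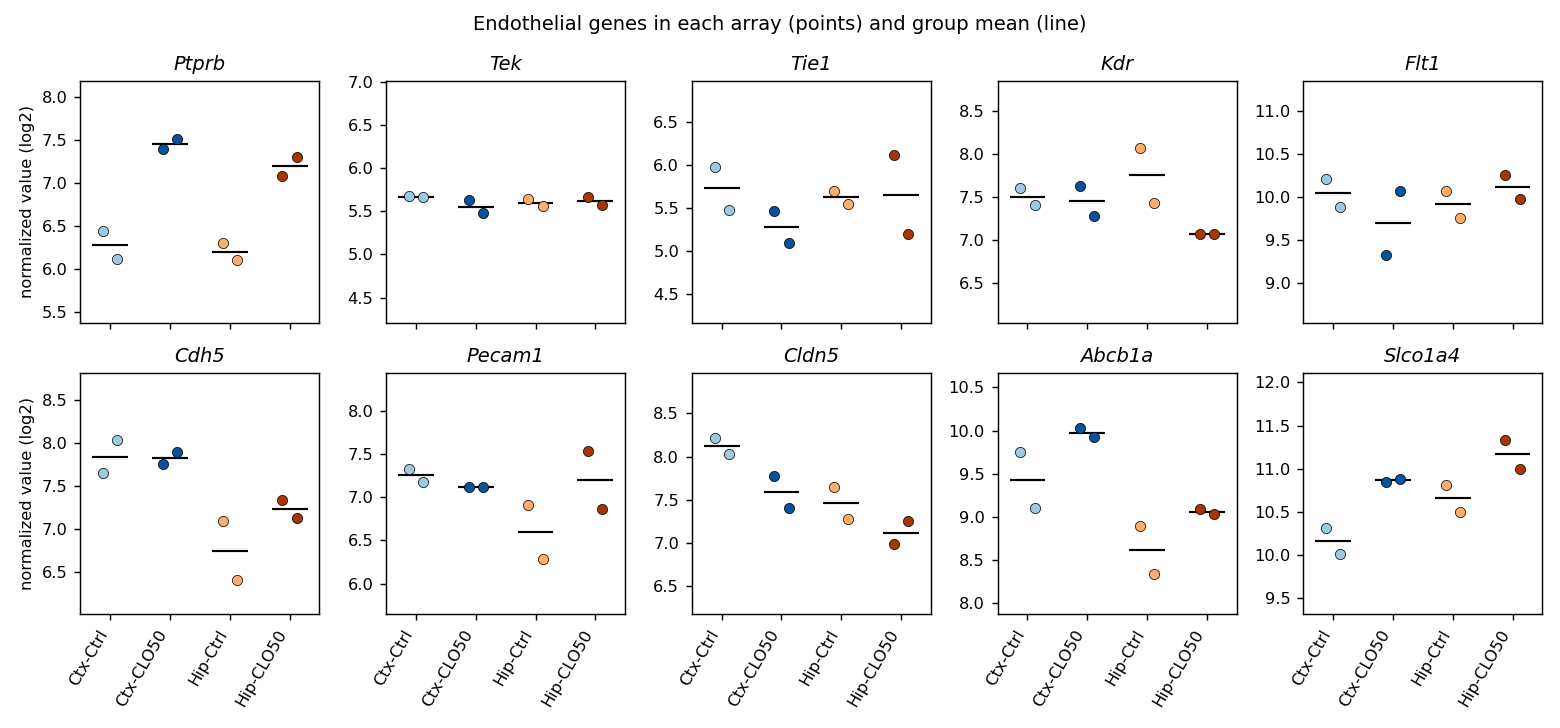
Normalized log2 value (vertical axis) of each of the 10 endothelial genes in the 4 groups (horizontal axis). Points are single arrays, 2 per group, and the line is the group mean; every panel spans the same number of log2 units around its own mean. Ptprb lies between 6.1 and 6.44 in control arrays and between 7.08 and 7.51 in exposed arrays.

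None of the other 9 genes passed the test for exposure in either tissue or for the average over both, where 0.00675% of 14804 probe sets, that is 1, passed in each. At an unadjusted p under 0.05, 1 of the 9 passed in cortex and 1 in hippocampus, against 6.18% and 5.81% of all probe sets tested. In cortex 2 of the 9 had higher and 7 had lower means in exposed arrays, with a median difference of -0.12, beside a median of -0.025 over all probe sets tested. In hippocampus 7 had higher and 2 lower means, with a median of 0.2 beside 0.005. In cortex 2 of the 9 were higher and 4 lower without overlap of the arrays, against 17.1% and 21.4% of all probe sets tested, and in hippocampus 3 were higher and 2 lower, against 16.7% and 14.0%. The middle of the 9 lay on opposite sides of 0 in the tissues, while Ptprb lay on the same side. In both tissues without overlap of the arrays, 2 of the 9 (Slco1a4 and Abcb1a) were higher and 1 (Cldn5) was lower, against 4.17% of probe sets in each direction. Without the 2 control arrays high in Ttr, which leaves 1 control array per tissue, 3 were higher and 1 was lower.

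The Tie receptors did not show the difference seen in Ptprb. Tek, the angiopoietin receptor that VE-PTP dephosphorylates, had values of 5.68 and 5.66 in Ctx-Ctrl, 5.63 and 5.48 in Ctx-CLO50, 5.64 and 5.56 in Hip-Ctrl and 5.66 and 5.57 in Hip-CLO50. The 8 arrays lay within 5.48 to 5.68, the narrowest spread of the 10 genes, with exposed arrays just below the controls in cortex and overlap in hippocampus. The exposure difference of Tek was -0.12 in cortex (95% interval -0.71 to 0.48) and 0.02 in hippocampus (-0.58 to 0.61), with limma adjusted p of 0.98 and 1.0. Both intervals end below the 0.99 that Ptprb had in hippocampus, but they overlap the interval of that value, 0.39 to 1.59. The difference between the genes was not tested. Tie1, the orphan partner of Tie2, had 5.98 and 5.48 in Ctx-Ctrl and 5.46 and 5.09 in Ctx-CLO50. In hippocampus it had 5.7 and 5.55 in control against 6.11 and 5.2 in exposed arrays. The exposed arrays lay just below the controls in cortex and on both sides of them in hippocampus. Its differences were -0.46 (SE 0.35) and 0.03 (SE 0.35), with limma adjusted p of 0.87 and 1.0.

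Neither VEGF receptor gene passed the test for exposure. Kdr, the main signalling receptor for VEGF, had overlapping values in cortex, 7.6 and 7.4 in control against 7.62 and 7.28 in exposed arrays. In hippocampus both exposed arrays read 7.07 and the controls 8.07 and 7.43, so that the groups did not overlap. The hippocampus difference of Kdr was -0.68 (95% interval -1.32 to -0.04, unadjusted p = 0.039), opposite in sign to that of Ptprb, and it did not pass (limma adjusted p = 0.84). Without Hip-Ctrl 1, which is high in Ttr, it was -0.36. Flt1, which binds VEGF with little signalling and can act as a decoy, had 10.21 and 9.88 in Ctx-Ctrl, 9.33 and 10.07 in Ctx-CLO50, 10.07 and 9.76 in Hip-Ctrl and 10.25 and 9.98 in Hip-CLO50. Its groups overlapped in both tissues, with differences of -0.34 and 0.2 (limma adjusted p = 0.88 and 0.97).

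The genes of endothelial contacts had small cortex differences for Cdh5 and Pecam1 and lower exposed values for Cldn5. Cdh5, encoding VE-cadherin, had 7.65 and 8.03 in Ctx-Ctrl and 7.75 and 7.89 in Ctx-CLO50, a difference of -0.02 (95% interval -0.68 to 0.64). In hippocampus it had 7.09 and 6.41 in control against 7.34 and 7.13 in exposed arrays. Those groups did not overlap, and the difference of 0.48 did not pass (SE 0.3, limma adjusted p = 0.91), running from 0.14 to 0.82 with 1 array left out. Pecam1, encoding the adhesion molecule CD31, had 7.33 and 7.18 in Ctx-Ctrl and 7.12 in both Ctx-CLO50 arrays, just below the controls. In hippocampus it had 6.91 and 6.28 in control against 7.54 and 6.86 in exposed arrays, with overlap. Its differences were -0.14 and 0.6 (SE 0.32 for both, limma adjusted p = 0.98 and 0.87), and the latter ran from 0.26 to 0.94 with 1 array left out.

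Cldn5 lay on the opposite side of 0 from Ptprb. It had 8.21 and 8.03 in Ctx-Ctrl and 7.77 and 7.4 in Ctx-CLO50, and 7.65 and 7.27 in Hip-Ctrl and 6.98 and 7.25 in Hip-CLO50. Exposed arrays were lower without overlap in both tissues, in hippocampus by a margin of only 7.27 against 7.25. The difference was -0.54 in cortex (95% interval -1.14 to 0.07, limma adjusted p = 0.81) and -0.34 in hippocampus (-0.95 to 0.26, adjusted p = 0.95). Averaged over tissues it was -0.44 (SE 0.22, unadjusted p = 0.074, limma adjusted p = 0.83), a 1.36-fold lower level in exposed arrays.

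The transporters Slco1a4 and Abcb1a were the members that lay nearest to Ptprb. Slco1a4 had 10.31 and 10.01 in Ctx-Ctrl and 10.85 and 10.88 in Ctx-CLO50. In hippocampus it had 10.81 and 10.5 in control against 11.33 and 11 in exposed arrays. In each tissue the exposed arrays lay above the controls, by 0.7 in cortex (95% interval 0.17 to 1.24, 1.63-fold, unadjusted p = 0.014, limma adjusted p = 0.74) and by 0.51 in hippocampus (-0.02 to 1.04, 1.42-fold, adjusted p = 0.85). The average over tissues was 0.61 (SE 0.22, unadjusted p = 0.016, adjusted p = 0.83).

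Abcb1a, whose product pumps many drugs out of the capillary wall, had 9.75 and 9.1 in Ctx-Ctrl and 10.03 and 9.92 in Ctx-CLO50. In hippocampus it had 8.89 and 8.34 in control against 9.09 and 9.03 in exposed arrays. The exposed arrays were higher without overlap in both tissues, and the control arrays of a tissue lay farther apart than the exposed ones. The difference was 0.55 in cortex (95% interval -0.08 to 1.18, limma adjusted p = 0.81) and 0.44 in hippocampus (-0.19 to 1.08, adjusted p = 0.92). Its size followed the control array used: leaving out Ctx-Ctrl 6 or Ctx-Ctrl 1 gave 0.22 or 0.88 in cortex.

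**Figure D2:**
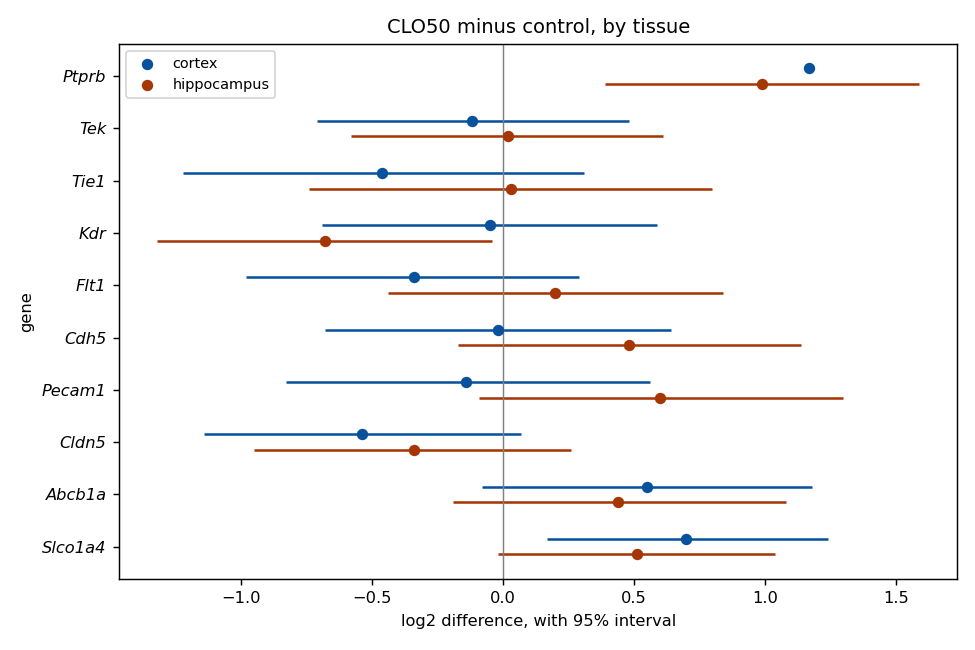
Exposed minus control log2 difference (horizontal axis) of the 10 genes (vertical axis) in cortex and hippocampus. Points are differences of group means, 2 arrays per group, and bars are 95% intervals from limma; Ptprb has no bar in cortex, where it was not tested. Ptprb, Slco1a4 and Abcb1a lie above 0 in both tissues and Cldn5 below 0 in both.

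The exposure differences of the tissues were compared directly for the 9 genes. None passed (limma, adjusted p = 1.0 for each), as for 0.00% of all probe sets, with 3.45% of them under an unadjusted p of 0.05. The largest were Pecam1, with 0.74 (hippocampus minus cortex, 95% interval -0.24 to 1.72), and Kdr, with -0.63 (-1.54 to 0.28). For Slco1a4 the value was -0.2 (-0.95 to 0.56) and for Abcb1a -0.1 (-1.0 to 0.79). Those intervals do not show that the tissues responded alike. Which gene had the largest difference depended on single arrays: with 1 left out, Pecam1 ran from 0.4 to 1.08, Kdr from -0.95 to -0.31, Tie1 from 0.03 to 0.94 and Flt1 from 0.18 to 0.92.

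Likeness to Ptprb was measured over all 8 arrays as the root mean square difference between 2 profiles, each centred on its own mean. A gene that read the same on every array would differ from Ptprb by 0.56 log2 units. Of the 9 other members 3 came closer than that, where 18.8% of 13240 probe sets with a symbol did. Slco1a4 was closest at 0.4, with 1.4% of probe sets closer still, then Abcb1a at 0.48 (6.05% closer) and Pecam1 at 0.55 (16.1% closer). Tek lay at 0.59, Cdh5 at 0.61, Flt1 at 0.66, Tie1 and Kdr at 0.75 each and Cldn5 at 0.8, beside a median of 0.68 over all probe sets. The choice of Ptprb for its exposed values shapes this order, so it is a description without a test.

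**Figure D3:**
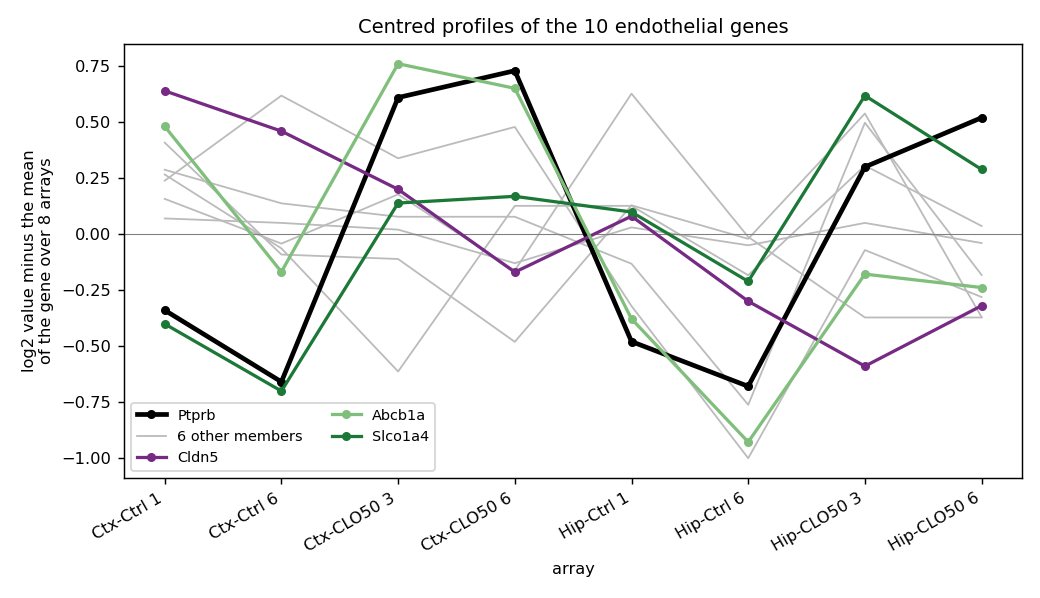
Log2 value minus the mean of that gene over 8 arrays (vertical axis) for each array (horizontal axis). The thick black line is Ptprb, the coloured lines are Slco1a4, Abcb1a and Cldn5, and grey lines are the 6 other members. Slco1a4 and Abcb1a are higher in exposed than in control arrays of each tissue, as Ptprb is, and Cldn5 is lower.

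The 10 probe sets closest to Ptprb held 0 genes of the lists used here. They were Rmdn1 (a difference to Ptprb of 0.21), Gucy1a2 (0.24), Scarb2 (0.24), Agrn (0.25), Olfr1355 (0.25), Dgki (0.25), Srsf5 (0.26), Kdm1a (0.27), Gabrg1 (0.27) and Btf3l4 (0.28). Agrn encodes agrin, a proteoglycan of basement membranes, with a mean of 6.9 in Ctx-Ctrl, 7.79 in Ctx-CLO50, 6.76 in Hip-Ctrl and 7.44 in Hip-CLO50. Gucy1a2 encodes a subunit of the nitric oxide receptor, with group means of 6.61, 7.48, 6.53 and 7.2 in that order. Gabrg1 encodes a GABA-A receptor subunit, with means of 8.88, 9.99, 9.12 and 9.94. These genes were chosen for their likeness, and 4 to 8 of the 10 stayed among the closest when 1 array was left out. At least 4 stayed when values were rescaled or profiles were set to equal spread.

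The wider endothelial lists did not show a common direction. Of 35 other pan-endothelial genes 32 were measured and 25 passed the filter on low values. In cortex 12 had higher and 13 lower means in exposed arrays (median -0.04), in hippocampus 14 and 11 (median 0.09), and 0 passed adjustment. Eng, encoding the TGF-beta co-receptor endoglin, had 8.34 and 8.48 in Ctx-Ctrl and 7.2 and 7.48 in Ctx-CLO50, a difference of -1.07 (SE 0.3, unadjusted p = 0.0038, limma adjusted p = 0.74). In hippocampus its difference was -0.21. The endothelial and progenitor antigen Cd34 had a cortex difference of -0.69 (limma adjusted p = 0.79), and the adhesion gene Esam one of 0.8 (adjusted p = 0.8). Esam had -0.06 in hippocampus. Podxl, encoding the sialomucin podocalyxin, had 5.33 and 5.16 in Hip-Ctrl and 6.78 and 5.96 in Hip-CLO50, a difference of 1.12 (SE 0.32, unadjusted p = 0.0042, limma adjusted p = 0.77), with 0.12 in cortex. Podxl and Adgrf5, an adhesion receptor gene, were the 2 of 25 that were higher without overlap in both tissues, against 4.17% of all probe sets, and Adgrf5 was singled out after its values were seen. Egfl7, Ly6a and Rasip1 were not analysed here.

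Among 20 other genes of barrier transport, 19 were measured and tested. In cortex 9 had higher and 10 lower means (median -0.08), in hippocampus 11 and 8 (median 0.03), and 0 passed. Abcb1b, the second P-glycoprotein gene of rodents and a close relative of Abcb1a, had 6.48 and 6.36 in Ctx-Ctrl, 7.09 and 6.65 in Ctx-CLO50, 7.18 and 6.51 in Hip-Ctrl and 7.61 and 8.04 in Hip-CLO50. Exposed arrays were higher in both tissues, by 0.45 (SE 0.32, limma adjusted p = 0.85) and 0.98 (SE 0.32, unadjusted p = 0.0093, adjusted p = 0.77). The sequence of Abcb1b is close to that of Abcb1a, and whether the probes tell them apart was not tested. The transferrin receptor gene Tfrc had 10.08 and 10.48 in Ctx-Ctrl and 10.65 and 11.17 in Ctx-CLO50, and 10.05 and 10.25 in Hip-Ctrl and 10.52 and 10.8 in Hip-CLO50. Its differences were 0.63 (unadjusted p = 0.037) and 0.51 (unadjusted p = 0.081), with limma adjusted p of 0.8 and 0.87. The insulin receptor gene Insr was the third transport gene higher without overlap in both tissues, with 0.44 and 0.32, and Slc3a2, singled out after its values were seen, was the 1 that was lower, with -0.28 and -0.22. That is 3 and 1 of 19, where 4.17% of all probe sets lay so in each direction. Abcg2, encoding another efflux pump, differed by 0.63 in cortex and -0.06 in hippocampus. Slco1c1, the thyroxine transporter gene, had a hippocampus difference of -0.96, with 12.94 in Hip-Ctrl 1 and 10.98 to 11.05 in the other 3 hippocampus arrays, and without Hip-Ctrl 1 the difference was 0.0.

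Of 13 tight junction genes 12 were measured and 11 tested. In hippocampus 2 had higher and 9 lower means in exposed arrays (median -0.18), in cortex 5 and 6 (median -0.04), and 0 passed. Tjp1, encoding the scaffold ZO-1, had 11.06 and 10.9 in Ctx-Ctrl, 10.72 and 10.85 in Ctx-CLO50, 11.01 and 11.42 in Hip-Ctrl and 10.85 and 10.89 in Hip-CLO50. Like Cldn5 it was lower without overlap in both tissues, with -0.2 and -0.34 on the log2 scale (limma adjusted p = 0.93 and 0.93). It was the only 1 of the 11 that lay so, and 0 were higher, where 4.17% of all probe sets lay so in each direction. Cldn1 had a hippocampus difference of -1.2, which turned to 0.74 without Hip-Ctrl 1, where its value was 7.81 against 3.95 in Hip-Ctrl 6.

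The ligands of the member receptors gave no call. Of 11 genes of the VEGF and angiopoietin pathway 10 were measured and 7 tested, with 6 higher and 1 lower in exposed cortex (median 0.1) and 1 higher and 6 lower in exposed hippocampus (median -0.08). Vegfa, the main ligand of Kdr, had 9.22 and 9.01 in Hip-Ctrl and 9.71 and 9.78 in Hip-CLO50, a difference of 0.63 (95% interval 0.02 to 1.24, unadjusted p = 0.045, limma adjusted p = 0.85). In cortex it had 9.99 and 9.62 in control against 9.8 and 10.48 in exposed arrays, with overlap. Vegfb, a ligand of Flt1, had differences of -0.35 and -0.28. Angpt1, the agonist ligand of Tie2, had differences of 0.04 (95% interval -0.58 to 0.65) and -0.08 (-0.7 to 0.54). Angpt2 and Angpt4 were below the filter and were not tested, and Nrp1 was not analysed here. Nrp2, a co-receptor for VEGF-C and semaphorins, differed by 0.64 in cortex (limma adjusted p = 0.81) and -0.04 in hippocampus.

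Other phosphatases of the R3 receptor class, to which VE-PTP belongs, did not show its difference. Ptprj had 12.29 and 11.97 in Ctx-Ctrl, 11.99 and 12.28 in Ctx-CLO50, 12.63 and 12.45 in Hip-Ctrl and 12.62 and 12.89 in Hip-CLO50. Its differences were 0.0 (95% interval -0.5 to 0.51) and 0.22 (-0.29 to 0.72). Ptpro had 0.21 (-0.45 to 0.87) and -0.02 (-0.67 to 0.64). Ptprh and Ptprq, the 2 others on the list, were below the filter and were not tested.

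Among 20 arterial, venous and tip cell genes 11 were tested, with 3 higher and 8 lower in cortex (median -0.06) and 8 higher and 3 lower in hippocampus (median 0.16). Nr2f2, encoding COUP-TFII, a nuclear receptor of venous endothelium that some neurons also use, had 10.42 and 9.94 in Hip-Ctrl and 8.91 and 8.89 in Hip-CLO50. That difference was -1.28 (SE 0.31, unadjusted p = 0.0014, limma adjusted p = 0.77), with -0.01 in cortex. Ephb4, a venous receptor gene, had 0.56 in cortex and 0.16 in hippocampus (limma adjusted p = 0.81 and 0.98).

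Cells that surround the endothelium were followed by their own markers. Of 15 tested mural cell markers, genes of pericytes and smooth muscle, 9 were higher and 6 lower in exposed cortex (median 0.2) and 13 higher and 2 lower in exposed hippocampus (median 0.3), with 0 called. The mean level of 18 mural markers was highest in Hip-CLO50 3, at 6.58, and in Ctx-CLO50 3, at 6.36, and it was 5.97 to 6.16 in the other 6 arrays. Atp13a5, a pericyte gene, had 5.67 and 5.64 in Hip-Ctrl and 6.63 and 6.99 in Hip-CLO50, a difference of 1.16 (SE 0.29, unadjusted p = 0.0018, limma adjusted p = 0.77), with -0.08 in cortex. Mcam, encoding CD146, had differences of 0.64 and 0.42. The mean level of 11 meningeal and fibroblast markers was 7.46 in Ctx-CLO50 3 and 6.6 in Ctx-CLO50 6, against 6.56 and 6.58 in Ctx-Ctrl. In hippocampus it was 7.86 in Hip-CLO50 3 and 6.49 in Hip-CLO50 6, against 7.77 and 7.01 in Hip-Ctrl. Of 10 tested, 8 were higher in exposed cortex (median 0.57) and 5 in exposed hippocampus (median 0.0), with 0 called. The part of these cells in the differences of the members was not tested. Median exposure differences of perivascular macrophage, blood, astrocyte, neuronal, oligodendrocyte and microglial markers lay between -0.31 and 0.23 in cortex and between -0.3 and 0.13 in hippocampus, with 0 called. Choroid plexus markers differed more than those lists, with medians of -0.46 in cortex and -2.74 in hippocampus, where all 9 tested were lower. Of these 9, 0 were called in either tissue and 1 was called lower in the average over tissues, the only probe set called there. In that comparison Hip-Ctrl 1 and Ctx-Ctrl 6, the arrays high in Ttr, fall into different control means. Each control mean thus holds 1 of them, and the call could not be checked without them. The mean level of the 11 choroid plexus markers measured was 10.15 in Hip-Ctrl 1 and 4.84 in Hip-Ctrl 6. The 7 cortex markers had median exposure differences of -0.2 in cortex and 0.52 in hippocampus, with 0 called in either. In hippocampus 5 were higher and 2 lower. Hippocampus minus cortex, their exposure differences had a median of 0.65, with 7 of 7 above 0. Their mean level was 10.67 in Hip-CLO50 3 and 10.14 in Hip-CLO50 6, against at most 10.05 in Hip-Ctrl. Whether cortex tissue in the hippocampus samples had a part in the differences of the members was not tested.

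**Figure D4:**
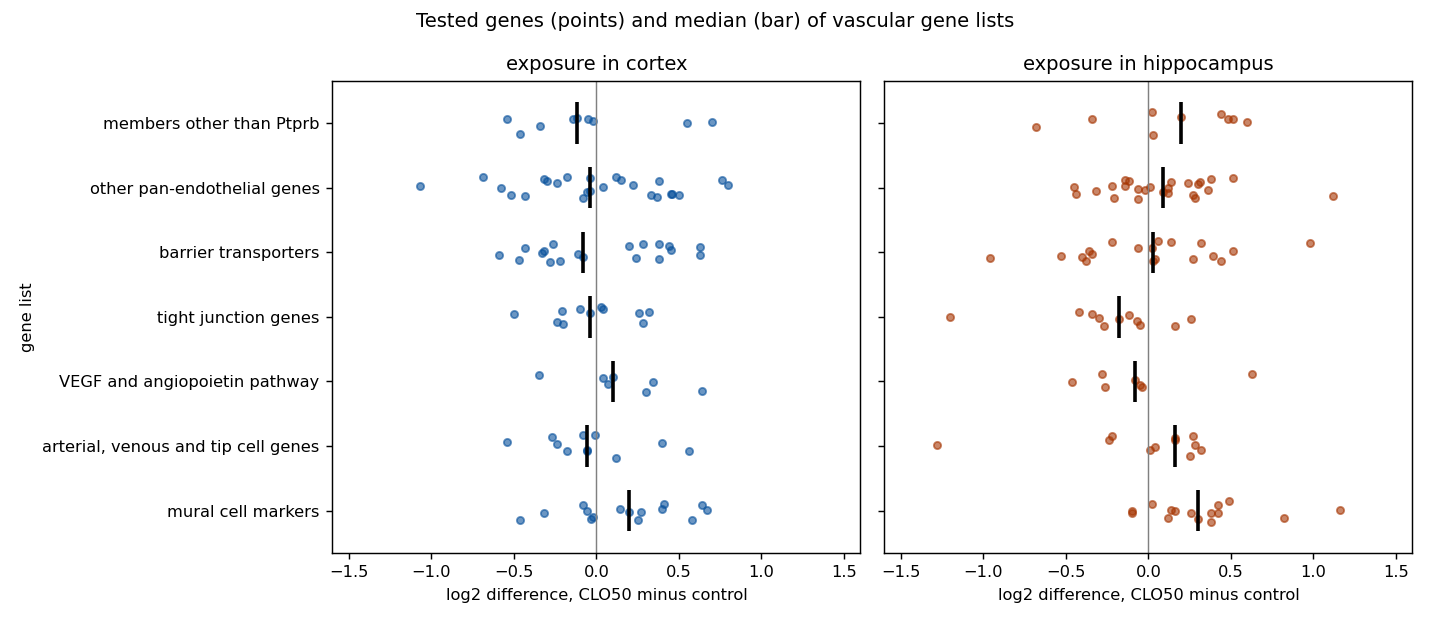
Exposed minus control log2 difference (horizontal axis) of each tested gene (points) of 7 vascular lists (vertical axis) in cortex and hippocampus, with the median of each list as a black bar. List medians lie between -0.12 and 0.2 in cortex and between -0.18 and 0.3 in hippocampus.

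The tissues were also compared within each arm, for the 9 members other than Ptprb. Of these 1 was called in control arrays and 0 in exposed arrays, against 17.7% and 14.5% of all probe sets. Cdh5 was lower in control hippocampus than in control cortex, with group means of 6.75 ± 0.48 and 7.84 ± 0.27 (SD, n = 2), a difference of -1.09 on the log2 scale (95% interval -1.75 to -0.43, 2.13-fold, limma adjusted p = 0.027). The all-probe-set median of this comparison was 0.1, and it was -0.06 with each array centred on its median and 0.012 after quantile normalization. The call for Cdh5 was lost without Ctx-Ctrl 1 (adjusted p = 0.067), Ctx-Ctrl 6 (adjusted p = 0.19) or Hip-Ctrl 6 (adjusted p = 0.17), and without the 2 arrays high in Ttr (-1.24, adjusted p = 0.087). In exposed arrays the Cdh5 difference was -0.58 (-1.24 to 0.07, limma adjusted p = 0.22).

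Abcb1a had lower means in hippocampus in both arms, with -0.81 in control arrays (95% interval -1.44 to -0.18, limma adjusted p = 0.077) and -0.92 in exposed arrays (-1.55 to -0.28, adjusted p = 0.056). Both just missed the threshold, and both passed after median centring (adjusted p = 0.035 and 0.029) and quantile normalization (adjusted p = 0.045 and 0.024). With arm and number as a replicate block they also passed (adjusted p = 0.025 and 0.016), though the labels do not state that same-numbered arrays share an animal. Without the 2 control arrays high in Ttr the difference in control arrays was -1.41. Cldn5 and Pecam1 each had -0.66 in control arrays (limma adjusted p = 0.13 and 0.18), and in the other arm they had -0.47 and 0.08. Slco1a4 had the opposite sign, 0.5 and 0.3 (limma adjusted p = 0.19 and 0.46). Tek, Tie1, Kdr and Flt1 had tissue differences of -0.13 to 0.25 in the control arm and of -0.38 to 0.42 in the exposed arm, with no call.

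Some genes of the pathway and vascular lists were also called between tissues, though list medians were near 0 in the VEGF and angiopoietin list, at 0.06 in control and -0.06 in exposed arrays, with 2 of 7 called higher in each against 17.7% and 14.5% called in all. Angpt1 was higher in hippocampus in both arms, with 7.22 and 6.94 in Hip-Ctrl against 5.4 and 5.15 in Ctx-Ctrl and 7.17 and 6.83 in Hip-CLO50 against 5.31 and 5.31 in Ctx-CLO50. The differences were 1.8 and 1.69 (limma adjusted p = 0.00095 and 0.0019). Ptpro was higher by 2.03 and 1.8 (limma adjusted p = 0.00068 and 0.002), Nrp2 by 2.62 and 1.96 (adjusted p = 0.00013 and 0.0014) and Nr2f2 by 2.81 and 1.54 (adjusted p = 7.6e-05 and 0.0061). Cd34 was lower, with -3.0 and -2.33 (limma adjusted p = 2.3e-05 and 0.00023). Efnb2, an arterial ligand gene, was lower in both arms, with -1.09 and -1.44 (limma adjusted p = 0.033 and 0.0098). Eng was lower in control hippocampus, with -1.11 (limma adjusted p = 0.024), and had -0.25 in exposed arrays (adjusted p = 0.62). Vwf, encoding von Willebrand factor, was higher in control hippocampus, with 1.07 (limma adjusted p = 0.034), and had 0.25 in exposed arrays (adjusted p = 0.64). The calls for Eng, Vwf and Efnb2 in control arrays were lost when single arrays were left out (lowest and highest adjusted p over all settings 0.011 and 0.14 for Eng, 0.028 and 0.17 for Vwf, 0.003 and 0.38 for Efnb2). Of the 25 pan-endothelial genes tested, 2 were called higher and 2 lower in control arrays and 1 higher and 1 lower in exposed arrays, no larger a share than the 17.7% and 14.5% of all probe sets.

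**Figure D5:**
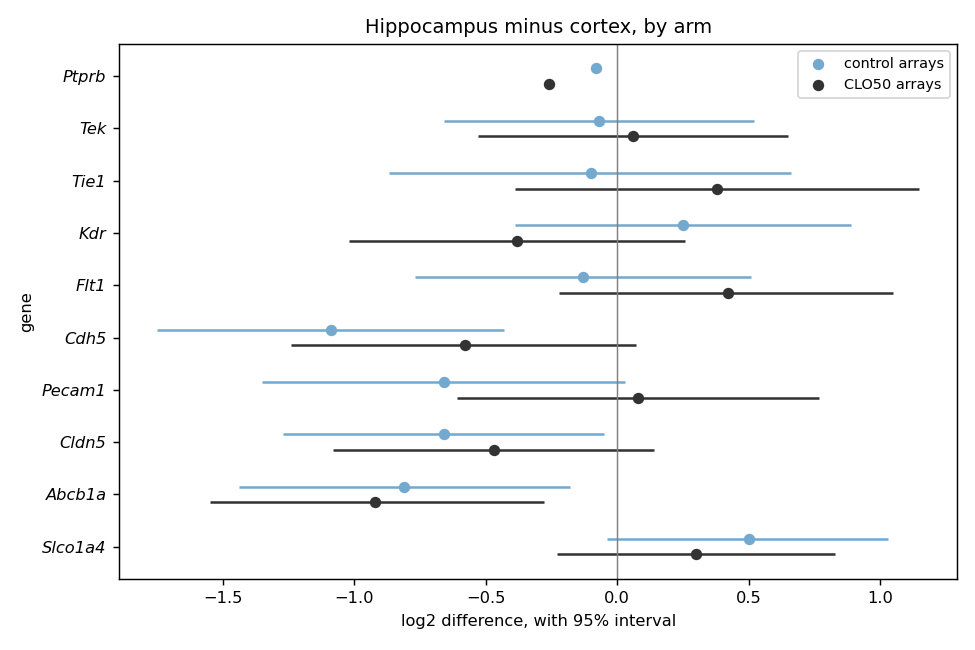
Hippocampus minus cortex log2 difference (horizontal axis) of the 10 genes (vertical axis) in control and in exposed arrays. Points are differences of group means, 2 arrays per group, and bars are 95% intervals from limma; Ptprb has no bar, since it was not tested. Cdh5 in control arrays, at -1.09, is the 1 value that passed adjustment.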

How the data were processed

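Total RNA of 8 samples (RNA integrity number above 7.0, 250 ng, GeneChip WT kits, per the labels' protocols) was hybridised to 1-colour Affymetrix arrays. The authors deposited normalized log2 values per probe set, made with RMA per the submitters' processing notes. For RMA's version and the annotation build, the sources used here give nothing. The file does not state the base of the logarithm, and 2 was taken from RMA's usual output and the range of the values, 1.59 to 19.93. Genes were named by the platform annotation: 19572 probe sets have 1 symbol, 2634 have none and 0 have several, and all 19572 matched a RefSeq gene by Entrez identifier.

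The lowest 33.3% of probe sets by mean over all arrays, those under 3.937, were left out. All 10 members passed this filter. A model with 1 mean per group was fitted to the 14804 probe sets that were kept on the 8 arrays. The tool was limma 3.58.1 (R 4.3.3), by lmFit and then eBayes with the prior variance following the mean; residual degrees of freedom were 4 and prior ones 7.918. Two-sided p-values were adjusted by the Benjamini-Hochberg method over all probe sets kept, at a threshold of 0.05, and intervals are 95% intervals of that fit. The average over tissues was fitted to means of arrays with the same arm and number. The fits were tested on simulated data. Precision is limited by the small number of arrays.

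The members and lists were chosen with earlier results of these data known. Ptprb was tested for exposure in hippocampus only, since the other comparisons use the cortex values that chose it. Named genes are the members, the 10 probe sets closest to Ptprb, up to 3 genes per list and tissue with the smallest unadjusted p, and the angiopoietin, VEGF and R3 phosphatase genes. Same-numbered arrays of the tissues are not stated to come from 1 animal. Alternatives were other filters, scalings, variance models, array weights, arrays left out, fits of 2 groups only and a replicate block. Sequences are RefSeq promoters of assembly GRCm38.p6.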

Additional observations from a re-analysis of the deposited data

Results flagged for a closer look

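A pair of genes from the endothelial and pathway lists was picked out because every array lay on one side of its controls in cortex and on the other side in hippocampus. S1pr1, encoding a sphingosine-1-phosphate receptor of endothelial cells and astrocytes, had 12.17 and 12.2 in Ctx-Ctrl and 12.02 and 11.49 in Ctx-CLO50, but 11.46 and 11.58 in Hip-Ctrl and 11.87 and 11.79 in Hip-CLO50. The difference between the tissues' exposure differences was 0.74, and it did not pass adjustment (limma, adjusted p = 1.0). The choice of the gene fixed the sign of that difference, so its size is a description and not a test. Vegfc, a ligand of the lymphatic VEGF receptor, had 6.68 and 6.51 in Ctx-Ctrl and 6.93 and 6.85 in Ctx-CLO50, but 6.41 and 6.69 in Hip-Ctrl and 6.3 and 6.27 in Hip-CLO50. Its difference between tissues was -0.56 (limma adjusted p = 1.0), a description for the same reason. Of the 10 members none showed such opposite, non-overlapping groups, and the share of all probe sets that did was not counted. Within cortex alone, 17.1% of all probe sets tested were higher and 21.4% lower without overlap, and within hippocampus 16.7% and 14.0%. Genes with opposite groups can therefore occur among the many listed without a shared cause, and this was not tested. The groups hold 2 arrays each, too few for a check of single arrays that lie far from the others.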

How the results depend on the processing

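The hippocampus exposure difference of Ptprb ran from 0.88 to 1.1 over the settings run (limma, adjusted p of 0.49 to 1.0). Its cortex difference ran from 1.01 to 1.33, a sign that the choice of the gene fixed. Slco1a4 ran from 0.56 to 0.86 and from 0.34 to 0.68, Abcb1a from 0.22 to 0.88 and from 0.17 to 0.72, and Cldn5 from -0.72 to -0.35 and from -0.54 to -0.16. None of the 9 other members passed for exposure in any setting. The cause of the changes below was not tested, beyond the arrays that each setting leaves out. With 2 arrays per group, leaving 1 out assumes that the lone array varies like the other groups.

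Probe sets called for exposure in cortex (1 in the fit reported) numbered 0 after quantile normalization, 0 without the trend, 2 with array weights, 3 without the 2 control arrays high in Ttr, 2 with only the 4 arrays compared, and 0 to 2 with 1 array left out. In hippocampus (1) they numbered 0 under those 5 settings and 0 to 56 with 1 array left out. For the difference between tissues (0) they numbered 0 to 30 with 1 array left out, and for the average (1) 0 on 8 single arrays and 1 to 26 with 1 number left out. For the tissues in control arrays (2620) they numbered 1155 without the Ttr-high arrays and 1289 to 2532 with 1 array left out, and in exposed arrays (2143) 1074 to 2440. Members called between tissues in control arrays (1, Cdh5) numbered 2 after quantile normalization, 2 after median centring, 0 with only the 4 arrays compared and 0 to 2 with 1 array left out. In exposed arrays (0) they numbered 1 after either scaling, 1 without the Ttr-high arrays, 1 with only the 4 arrays compared and 0 to 1 with 1 array left out.

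The median of the 9 members with 1 array left out ran from 0.04 to 0.48 for hippocampus exposure, from 0.06 to 0.38 for the difference, from -0.36 to -0.03 for control tissues and from -0.26 to 0.1 for exposed tissues. Without the Ttr-high arrays it was 0.5 for the difference and -0.45 for control tissues. The average over tissues could not be run without them, since no control mean would be left.

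Signs turned mostly where values were near 0. After quantile normalization, cortex exposure was 0.02 for Kdr and 0.04 for Cdh5, and the exposed-tissue difference was -0.09 for Tek and -0.1 for Pecam1 (-0.08 and -0.06 after median centring). Without the Ttr-high arrays, cortex exposure was 0.17 for Cdh5, -0.09 for Angpt1 and -0.16 for Ptprj. Hippocampus exposure was then 0.45 for Vegfb, 0.06 for Angpt1 and 0.74 for Cldn1, the difference between tissues 0.5 for Abcb1a and 0.11 for Slco1a4, and the control-tissue difference -0.17 for Kdr. With 1 array left out, cortex exposure ran from -0.22 to 0.12 for Kdr, -0.21 to 0.17 for Cdh5, -0.72 to 0.02 for Flt1, -0.09 to 0.16 for Angpt1 and -0.16 to 0.16 for Ptprj. Hippocampus exposure ran from -0.03 to 0.06 for Tek, -0.42 to 0.48 for Tie1, -1.02 to 0.45 for Vegfb, -0.25 to 0.09 for Angpt1, -3.12 to 0.74 for Cldn1 and -0.29 to 0.26 for Ptpro. The difference between tissues ran from -0.43 to 0.22 for Abcb1a. The average ran from -0.23 to 0.09 for Flt1, -0.11 to 0.01 for Tek and -0.53 to 0.11 for Tie1. The control-tissue difference ran from -0.36 to 0.14 for Tie1, -0.3 to 0.04 for Flt1 and -0.07 to 0.57 for Kdr, and the exposed-tissue difference from -0.02 to 0.14 for Tek, -0.08 to 0.84 for Tie1 and -0.26 to 0.42 for Pecam1. Slco1c1 and Cldn1 passed for hippocampus exposure without Hip-Ctrl 6 (adjusted p = 0.0062 and 0.0065), which leaves as control the array high in Ttr.

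No paired analysis was possible for exposure within a tissue because the arms share only the number 6. Same-numbered arrays of the tissues had deviations that correlated at -0.000881 in control and 0.276 in exposed arrays over 14804 probe sets, and the labels state no shared animal. With arm and number as a replicate block, 1 probe set was called for the difference between tissues, and members called between tissues numbered 2 in control arrays (Cdh5 and Abcb1a) and 1 in exposed arrays (Abcb1a).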
